A study of Mus musculus with 12 samples.

Results

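The genes described here are 10 parts of the vascular endothelial growth factor (VEGF), angiopoietin and TIE system in mouse brain after photodynamic therapy. They are the ligands Vegfa, Vegfb, Angpt1 and Angpt2, the receptors Kdr, Flt1, Tek and Tie1, and the secreted protein genes Esm1 and Apln. They were taken by name from a deposited table of expression values, where each of the 10 names had 1 row among 54532 genes.

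The series is RNA sequencing of mouse brain tissue in 4 groups of 3 libraries: untreated controls, and tissue taken 1.5 h, 12 h and 48 h after photodynamic therapy. It asks how transcript levels in the brain differ with this treatment. Treated mice were injected with 5-aminolevulinic acid at 20 mg/kg, a heme precursor that cells turn into the light-activated pigment protoporphyrin IX. After 30 min they were irradiated with 635 nm laser light, at a dose labelled 20 J per square centimetre. Titles call the controls PBS and their treatment label reads untreated, which leaves unstated if these mice were injected or irradiated. No genetic modification is labelled, and tissue was taken after perfusion with 0.9% saline. The labels give both BALB/c and C57BL/6 for every sample, name no brain region, and do not say whether a library is 1 animal or whether animals were pooled. Values are FPKM, the authors' fragment counts scaled by gene length and by a factor for each library, so levels of different genes can be set side by side. That factor equalled a median-of-ratios scaling rather than the read total of the library, as described under processing.

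VEGF-A binds the receptor tyrosine kinases VEGFR2 (Kdr), which carries most of its growth and permeability signal in endothelial cells, and VEGFR1 (Flt1), which binds it tightly and signals weakly. Angiopoietin-1 (Angpt1), made by pericytes and other cells around vessels, activates the endothelial receptor TIE2 (Tek) and keeps vessels quiet and tight, whereas angiopoietin-2 (Angpt2), released by activated endothelium, can block TIE2 and loosen the wall. TIE1 (Tie1) is an orphan receptor that pairs with TIE2 and modulates it, and Esm1 (endocan) and Apln (apelin) are secreted proteins that sprouting endothelial tip cells make. In the brain this system acts on the vessels that form the blood-brain barrier.

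The promoter windows of Vegfa, Kdr and Apln are shown because these genes changed after treatment and a window was at hand for them. Each is the 250 bases before the gene start in RefSeq on build GRCm38.p6, minus strand, written 5′ to 3′ with motif matches in capitals. The Vegfa window is chr17:46032378-46032627, the nearer to the deposited gene start of 2 windows. The Kdr window is chr5:75978456-75978705 and the Apln window is chrX:48034854-48035103.
Vegfa: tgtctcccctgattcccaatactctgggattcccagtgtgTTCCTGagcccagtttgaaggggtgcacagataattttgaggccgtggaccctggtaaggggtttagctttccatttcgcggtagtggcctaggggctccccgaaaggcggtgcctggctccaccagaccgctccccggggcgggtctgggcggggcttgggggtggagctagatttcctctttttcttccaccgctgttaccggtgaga
Kdr: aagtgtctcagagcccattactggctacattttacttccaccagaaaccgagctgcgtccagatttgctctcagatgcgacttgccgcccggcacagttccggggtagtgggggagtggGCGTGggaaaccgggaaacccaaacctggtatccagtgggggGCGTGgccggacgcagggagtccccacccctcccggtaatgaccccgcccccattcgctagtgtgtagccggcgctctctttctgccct
Apln: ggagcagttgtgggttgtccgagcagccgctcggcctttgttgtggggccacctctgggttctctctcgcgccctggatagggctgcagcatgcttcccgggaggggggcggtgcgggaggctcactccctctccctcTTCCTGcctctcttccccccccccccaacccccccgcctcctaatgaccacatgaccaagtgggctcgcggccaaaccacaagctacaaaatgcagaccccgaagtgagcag

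Both strands of these windows were searched for short motifs. The letters ACGTG, and also GCGTG, are the cores that hypoxia-inducible factors bind, and the E-box CACGTG contains the first of them. The AP-1 motif was written TGANTCA, that of FOXO factors was written TGTTTAC and an ETS-like motif was written CAGGAA, and the NF-kB motif was searched as well. The Vegfa and Apln windows each held 1 match, to CAGGAA read on the opposite strand as TTCCTG, beginning 210 bases before the Vegfa start and 112 bases before the Apln start. The Kdr window held GCGTG at 131 and at 89 bases before the start. Of all 32851 RefSeq windows, 25.7% held CAGGAA and 28.2% held GCGTG, so either match is common. ACGTG was in 16.6% of windows, CACGTG in 6.02%, TGANTCA in 6.75%, TGTTTAC in 3.17% and the NF-kB motif in 1.41%. A window was listed for 8 of the 10 genes, all but Angpt1 and Angpt2. Among the other windows, Vegfb held GCGTG at 2 places and Flt1 at 1, Tek held CAGGAA at 2 and Tie1 at 1, and Esm1 held GCGTG at 1 and CAGGAA at 2.

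Gene reads recovered from the values came to between 15348579 and 17444654 per library. The neuron marker list summed to between 918 and 1563 FPKM and every endothelial marker was above 0 in all 12 libraries, while 7 choroid plexus markers summed to between 3.16 and 997 FPKM, with the lowest sums in the 1.5 h group. The 1.5 h libraries differed from each other, and in the trend with gene length and the mitochondrial share replicates 1 and 3 stood apart. Their log2 level fell by 0.104 and by 0.0598 for each doubling of gene length relative to the other libraries, whereas it rose by 0.0281 in 1.5 h replicate 2 and by 0.0274 to 0.0413 in controls. Mitochondrial genes took 12.4% and 9.14% of reads in them, against 4.16% to 6.02% in controls. By correlation of log2 levels, however, replicates 1 and 3 were the closer pair (r 0.979), and replicate 2 had r 0.919 and 0.949 with them. Library weights fitted by limma were lowest of all for 1.5 h replicate 2 (0.0963), 0.25 for replicate 1 and highest of all for replicate 3 (8.02). Which 1.5 h library is the sounder was not tested. The 48 h replicate 1 library was high in vessel markers, with a summed endothelial level of 195 FPKM, against 134 and 135 FPKM in the other 48 h libraries and 96.8 to 113 FPKM in controls. It differed from the other 48 h libraries in other markers too, with 1386 FPKM of oligodendrocyte markers against 577 and 590 FPKM, 997 FPKM of choroid plexus markers against 33.4 and 130.2 FPKM, and 918 FPKM of neuron markers against 1277 and 1198 FPKM. One library of the 12 h group carries a replicate number that no sample title of its group has and is called the unnumbered 12 h library.

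At 12 h, Angpt2, Vegfa, Apln and Kdr rose relative to control, and no gene of the 10 was called as lower. Tek, below all controls at 12 h, missed the threshold, but was called lower in 5 of 21 other ways of fitting the data. Angpt2 had by far the largest rise, with 30.7 times its control mean, while Vegfa, Apln and Kdr were at 2.14, 2.21 and 2.26 times theirs. At 48 h Angpt2 alone was still called higher than control. At 1.5 h no gene of the 10 passed the test. Each log2 difference given here is a difference between group means of log2(FPKM + 1), with the standard error (SE) of a limma fit to all 12 libraries, and a gene is said to have risen or fallen at a Benjamini-Hochberg adjusted p below 0.05 over 17664 tested genes. Because the tissue is bulk, a change in the number of cells of a type and a change in RNA per cell cannot be told apart.

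Of the 10 genes, 9 passed the filter of more than 0.5 FPKM in at least 3 libraries, and Esm1 did not. Angpt2 was above that level in 7 libraries, namely all of 12 h and 48 h and 1 at 1.5 h, so it was tested through the groups in which it was high. Between 12 h and control, 4 of 9 tested genes were called, where 21.2% of all tested genes were called in either direction, 13.3% as higher and 7.9% as lower. Between 48 h and control, 1 of 9 was called, where 12.5% of all tested genes were, 7.5% as higher and 5.01% as lower. Between 1.5 h and control, 0 of 9 were called by limma and 0.555% of all tested genes were, 0.419% as higher and 0.136% as lower. At an unadjusted p under 0.05 that comparison held 3 of the 9 genes, Kdr, Flt1 and Tek, all lower, which is near the 31.6% of all tested genes at that level, 18.9% as higher and 12.7% as lower. Without 1.5 h replicate 2, which leaves the libraries with the length trend, 4 of 9 were called at 1.5 h, Vegfb as higher and Kdr, Flt1 and Tek as lower, and so were 45.7% of all tested genes. Without 48 h replicate 3, Kdr was called at 48 h as well as Angpt2, beside 8.74% of all tested genes. In the F test over the 4 groups, 6 of the 9 differed (Vegfa, Kdr, Angpt2, Tek, Tie1 and Apln), as did 38.4% of all tested genes. The median log2 difference of the 9 genes was -0.19 at 1.5 h, 0.49 at 12 h and 0.30 at 48 h, beside medians of 0.02, 0.00 and -0.00 over all tested genes.

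**Figure D1:**
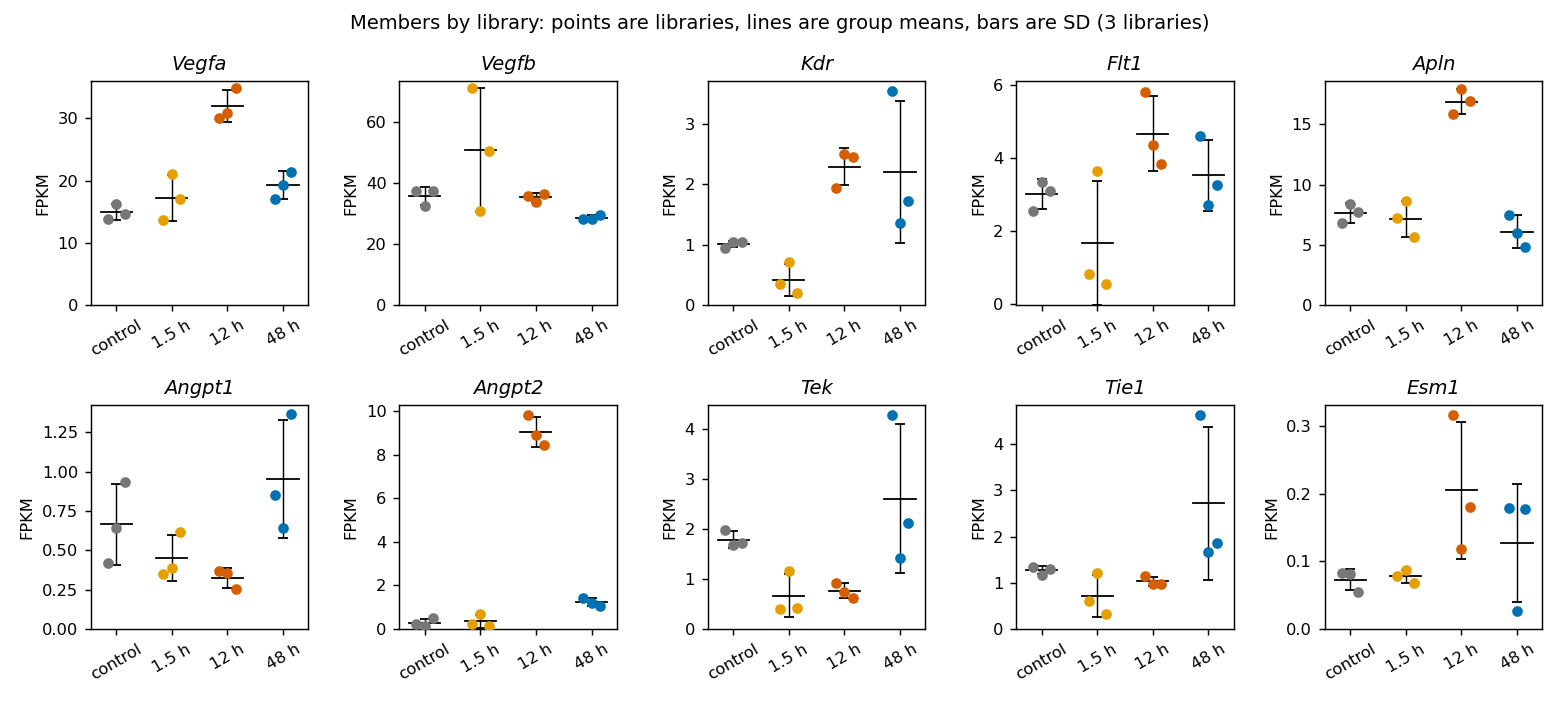
FPKM (vertical axis, linear, a scale of its own in each panel) of the 10 genes in control, 1.5 h, 12 h and 48 h libraries; points are libraries, horizontal lines are group means and bars are SD over 3 libraries. Angpt2, Vegfa and Apln stand highest in the 12 h libraries, and Kdr, Flt1, Tek and Tie1 have a single high library at 48 h.

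Vegfa, on chromosome 17 (46016993 to 46032369, minus strand), had 13.8, 16.3 and 14.7 FPKM in controls, 13.7, 21.0 and 17.0 FPKM at 1.5 h, 30.1, 30.8 and 34.9 FPKM at 12 h, and 17.0, 19.3 and 21.4 FPKM at 48 h. Every 12 h library was above every other library, and the 48 h libraries were above all controls by a small margin. The means were 31.9 ± 2.59 FPKM at 12 h and 14.9 ± 1.26 FPKM in controls (SD, n = 3 each). The log2 difference of 1.05 ± 0.16 (SE) had an adjusted p of 0.000844 in limma. At 48 h the mean was 19.2 ± 2.21 FPKM, a log2 difference from control of 0.34 ± 0.16 with a limma adjusted p of 0.188, and Vegfa fell by 0.70 on the log2 scale at 48 h relative to 12 h (limma adjusted p = 0.011). In order of mean level the groups ran 12 h, 48 h, 1.5 h and control, and the libraries of 48 h and 1.5 h, and of 1.5 h and control, overlapped.

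Vegfb encodes VEGF-B, a ligand of VEGFR1 that does not bind VEGFR2. It lies on chromosome 19 (6982473 to 6987651, minus strand) and had the highest mean level of the 10 genes in each group, with 37.5, 32.4 and 37.2 FPKM in controls, 71.1, 30.7 and 50.4 FPKM at 1.5 h, 35.7, 33.7 and 36.4 FPKM at 12 h, and 28.2, 28.3 and 29.6 FPKM at 48 h. The high values at 1.5 h were in replicates 1 and 3, the libraries with the length trend, and Vegfb is the shortest of the 10 genes at 1605 bases. At 12 h the log2 difference from control was -0.02 ± 0.23 with a limma adjusted p of 0.975. At 48 h all libraries lay below all controls, 28.7 ± 0.779 FPKM against 35.7 ± 2.87 FPKM (SD, n = 3 each), but the log2 difference of -0.30 ± 0.23 had a limma adjusted p of 0.452. No neighbours in the order of its levels, 1.5 h, control, 12 h and 48 h, differed in the test.

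Kdr, the gene of VEGFR2, lies on chromosome 5 (75932827 to 75978458, minus strand). It had 0.953, 1.05 and 1.05 FPKM in controls, 0.346, 0.712 and 0.198 FPKM at 1.5 h, 1.94, 2.50 and 2.45 FPKM at 12 h, and 3.54, 1.36 and 1.72 FPKM at 48 h. All 1.5 h libraries were below and all 12 h and 48 h libraries above every control. At 12 h the mean was 2.29 ± 0.311 FPKM, against 1.02 ± 0.0538 FPKM in controls (SD, n = 3 each), and the log2 difference of 0.70 ± 0.22 had a limma adjusted p of 0.0415. That call lay close to the threshold and was kept in 11 of 21 other ways of fitting the data, with adjusted p between 0.000173 and 0.195. It was lost without any 1 of the 3 control or the 3 12 h libraries, or without 48 h replicate 4, at log2 differences of 0.66 to 0.79. The call was also lost on log2(FPKM + 0.1), without the filter, and with the replicate number as a term in the fit. At 48 h the log2 difference from control was 0.61 ± 0.22 (limma adjusted p = 0.098), and without replicate 1 it was 0.33 (limma adjusted p = 0.239). In order of mean level the groups ran 12 h, 48 h, control and 1.5 h, and 12 h and 48 h did not differ beyond their spread (log2 difference of 48 h from 12 h -0.09 ± 0.22, limma adjusted p = 0.811).

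Flt1, the gene of VEGFR1, lies on chromosome 5 as well (147561604 to 147726011, minus strand). It had 2.55, 3.36 and 3.11 FPKM in controls, 0.829, 3.64 and 0.545 FPKM at 1.5 h, 5.83, 4.37 and 3.84 FPKM at 12 h, and 4.60, 2.71 and 3.26 FPKM at 48 h. The 12 h libraries were all above the controls, and the low values at 1.5 h were again replicates 1 and 3. At 12 h the mean was 4.68 ± 1.03 FPKM, against 3.01 ± 0.411 FPKM in controls (SD, n = 3 each), and the log2 difference of 0.49 ± 0.34 did not pass (limma adjusted p = 0.35). At 1.5 h the log2 difference from control was -0.76 ± 0.34 (limma adjusted p = 0.154), and with replicate 2 as the only 1.5 h library it was 0.22 (limma adjusted p = 0.875). In each fit with replicate 2 alone, that single library was taken to vary like those of the other groups. Replicate 2 was also the 1.5 h library that correlated least with the others of its group, as given above. Flt1 is the longest of the 10 genes by exon length, 13504 bases. No neighbours in the order of its mean levels, 12 h, 48 h, control and 1.5 h, differed in the test.

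Angpt1 lies on chromosome 15 (42424723 to 42676977, minus strand). It had 0.422, 0.642 and 0.934 FPKM in controls, 0.348, 0.388 and 0.618 FPKM at 1.5 h, 0.370, 0.357 and 0.253 FPKM at 12 h, and 0.851, 0.640 and 1.37 FPKM at 48 h. The 12 h libraries were the only group that lay entirely below the controls. The means were 0.327 ± 0.0640 FPKM at 12 h and 0.666 ± 0.257 FPKM in controls (SD, n = 3 each), with a log2 difference of -0.32 ± 0.16 and a limma adjusted p of 0.189. At 48 h Angpt1 was higher than at 12 h by 0.54 ± 0.16 on the log2 scale (limma adjusted p = 0.0411). That call was lost without 1 library in 6 cases, at limma adjusted p up to 0.146: control replicate 2, each of the 12 h libraries, or 48 h replicate 1 or 4. In order of mean level the groups ran 48 h, control, 1.5 h and 12 h, and neighbouring groups overlapped. An antisense gene, Gm17473, shares 14.2% of its exon bases and averaged at most 0.0176 FPKM in any group.

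Angpt2 lies on chromosome 8 (18690263 to 18741562, minus strand). It had 0.235, 0.154 and 0.496 FPKM in controls, 0.245, 0.697 and 0.116 FPKM at 1.5 h, 9.80, 8.90 and 8.44 FPKM at 12 h, and 1.43, 1.20 and 1.07 FPKM at 48 h. These are 10 to 32 recovered reads per control library and 496 to 544 per 12 h library. Every 12 h library was far above all others, and every 48 h library was above every control and 1.5 h library. The mean was 9.05 ± 0.690 FPKM at 12 h, against 0.295 ± 0.179 FPKM in controls (SD, n = 3 each), and single 12 h libraries were 17.0 to 63.8 times single controls. The log2 difference was 2.96 ± 0.16 with a limma adjusted p of 1.79e-06. At 48 h the mean was 1.23 ± 0.185 FPKM, 4.18 times that of controls, with a log2 difference of 0.79 ± 0.16 and a limma adjusted p of 0.00898, and relative to 12 h it fell by 2.17 (limma adjusted p = 2.44e-05). The level at 1.5 h did not differ from control beyond the spread (log2 difference 0.05 ± 0.16, limma adjusted p = 0.855), so the order of levels was 12 h, 48 h and then 1.5 h and control. The gene lies opposite Mcph1, which shares none of its exon bases and averaged 1.10 ± 0.233 FPKM at 12 h and 1.24 ± 0.0538 FPKM in controls (SD, n = 3 each).

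Tek, the gene of TIE2, lies on chromosome 4 (94739289 to 94874976, plus strand). It had 1.97, 1.67 and 1.71 FPKM in controls, 0.402, 1.16 and 0.425 FPKM at 1.5 h, 0.917, 0.749 and 0.626 FPKM at 12 h, and 4.28, 1.43 and 2.11 FPKM at 48 h. All 1.5 h and all 12 h libraries were below all controls, and the 48 h libraries lay on both sides of them. The mean was 0.661 ± 0.429 FPKM at 1.5 h and 0.764 ± 0.146 FPKM at 12 h, against 1.79 ± 0.164 FPKM in controls (SD, n = 3 each), but neither log2 difference passed. They were -0.77 ± 0.25 (limma adjusted p = 0.0983) at 1.5 h and -0.66 ± 0.25 (limma adjusted p = 0.0897) at 12 h. The 12 h difference was called in 5 of 21 other ways of fitting, at log2 differences of -1.14 to -0.60 over all 21. With replicate 2 alone at 1.5 h, the log2 difference was -0.37 (limma adjusted p = 0.83). In order of mean level the groups ran 48 h, control, 12 h and 1.5 h, with no difference called between neighbours. Tek differed among the 4 groups in the F test of limma (adjusted p = 0.0169) and was higher at 48 h than at 12 h by 0.96 ± 0.25 (limma adjusted p = 0.0262). Without 48 h replicate 1 this last log2 difference was 0.64 (limma adjusted p = 0.0547), and it also missed the threshold without 48 h replicate 4 or any 1 of the 12 h libraries.

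Tie1 lies on chromosome 4 as well (118471191 to 118490061, minus strand). It had 1.35, 1.18 and 1.30 FPKM in controls, 0.603, 1.22 and 0.320 FPKM at 1.5 h, 1.15, 0.970 and 0.983 FPKM at 12 h, and 4.64, 1.67 and 1.86 FPKM at 48 h. The 12 h libraries lay just below the controls and the 48 h libraries above them. The log2 difference from control was -0.16 ± 0.26 at 12 h (limma adjusted p = 0.719) and 0.62 ± 0.26 at 48 h (limma adjusted p = 0.156), and without 48 h replicate 1 the 48 h value was 0.28 (limma adjusted p = 0.39). Tie1 passed the F test over the 4 groups (limma adjusted p = 0.036), while the 48 h level above that of 12 h, a log2 difference of 0.79 ± 0.26, did not pass (limma adjusted p = 0.0655).

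Apln lies on chromosome X (48025146 to 48034853, minus strand). It had 6.81, 8.40 and 7.70 FPKM in controls, 7.19, 8.61 and 5.65 FPKM at 1.5 h, 15.8, 17.9 and 16.9 FPKM at 12 h, and 7.49, 6.00 and 4.82 FPKM at 48 h. The 12 h libraries were all above every other library, which overlapped. The mean was 16.9 ± 1.05 FPKM at 12 h, against 7.64 ± 0.800 FPKM in controls (SD, n = 3 each), and the log2 difference was 1.05 ± 0.17 with a limma adjusted p of 0.00122. At 48 h Apln was lower than at 12 h by a log2 difference of -1.35 ± 0.17 (limma adjusted p = 0.000423) and differed from control by -0.29 ± 0.17 (limma adjusted p = 0.295). Its receptor gene Aplnr was below the filter, with 0.154 ± 0.0582 FPKM at 12 h and 0.140 ± 0.0982 FPKM in controls, and Apela, which encodes another ligand of that receptor, was listed at 0 in every library.

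Esm1 lies on chromosome 13 (113209659 to 113218098, plus strand). It had 0.0826, 0.0811 and 0.0545 FPKM in controls, 0.0785, 0.0876 and 0.0682 FPKM at 1.5 h, 0.317, 0.118 and 0.180 FPKM at 12 h, and 0.178, 0.0260 and 0.178 FPKM at 48 h. The 12 h libraries were all above the controls, but these values rest on 4 to 10 recovered reads per 12 h library and on 2 or 3 per control. Fitted without the filter over 34310 genes, the log2 difference at 12 h was 0.16 ± 0.07 with a limma adjusted p of 0.149. A change in Esm1 was not detectable at this depth.

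**Figure D2:**
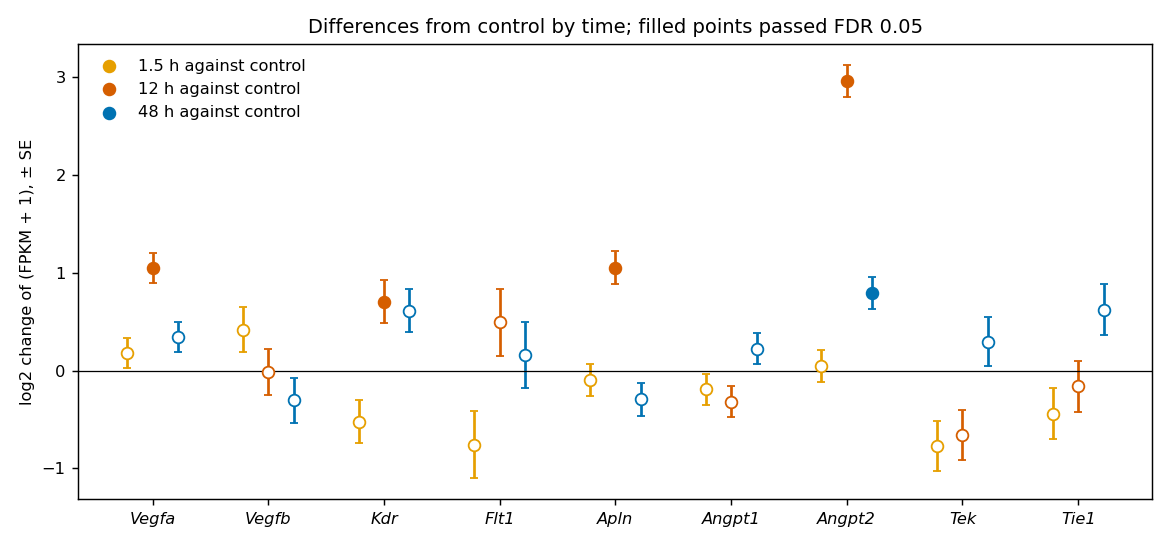
Log2 difference of (FPKM + 1) from control at 1.5 h, 12 h and 48 h for the 9 tested genes, with SE bars from the limma fit; filled points have an adjusted p below 0.05. The filled points are Vegfa, Kdr, Apln and Angpt2 at 12 h and Angpt2 at 48 h.

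Between times after treatment, 5 of the 9 tested genes were higher at 12 h than at 1.5 h, a comparison in which 33.2% of all tested genes were called. They were Angpt2 (log2 difference 2.91 ± 0.16), Flt1 (1.25 ± 0.34), Kdr (1.23 ± 0.22), Apln (1.15 ± 0.17) and Vegfa (0.87 ± 0.16). With replicate 2 as the only 1.5 h library, Angpt2, Apln and Vegfa were called at log2 differences of 2.56, 0.89 and 0.58, beside 13.6% of all tested genes. Kdr then had a log2 difference of 0.94 that missed the threshold (limma adjusted p = 0.0704), and Flt1 one of 0.28 (limma adjusted p = 0.496). The Kdr call was kept in 19 of the 21 other ways of fitting, at log2 differences of 0.94 to 2.32 over all 21. The Flt1 call was also lost without 1.5 h replicate 1, 1.5 h replicate 3 or 12 h replicate 1. Between 48 h and 12 h, 15.6% of all tested genes were called, 5.88% as higher and 9.73% as lower, and 5 of the 9 were. Vegfa, Angpt2 and Apln were lower at 48 h and Angpt1 and Tek were higher, the last 2 not in every set of libraries, as given above. These comparisons share the 12 h libraries with those against control.

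The groups were also compared by whether their libraries overlapped. At 12 h, 5 of the 9 tested genes had all libraries above all controls (Vegfa, Kdr, Flt1, Angpt2 and Apln), as did 28.2% of all tested genes, and 3 had all libraries below (Angpt1, Tek and Tie1), as did 26.2%. At 48 h, 4 of the 9 lay entirely above (Vegfa, Kdr, Angpt2 and Tie1), as did 21.1% of all tested genes, and Vegfb lay entirely below, as did 22% of them. At 1.5 h, Kdr and Tek lay entirely below, as did 12% of all tested genes. None of the 9 lay entirely above at 1.5 h, where 14.6% of all tested genes did.

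Of the 2 angiopoietin ligands, Angpt2 was called higher than control at 12 h and Angpt1 was not called. The ratio of Angpt2 to Angpt1 FPKM was 26.5, 24.9 and 33.3 in the 12 h libraries, against 0.557, 0.239 and 0.531 in controls. These ratios rest on 21 to 30 recovered Angpt1 reads per 12 h library and on 10 to 32 Angpt2 reads per control. Angpt1 was thus the more abundant of the pair in every control, and Angpt2 was more abundant by over an order of magnitude in every 12 h library. At 48 h the ratio was 1.68, 1.87 and 0.779, and at 1.5 h it was 0.705, 1.80 and 0.188. The ratio of Tie1 to Tek was 1.37 ± 0.172 at 12 h and 1.04 ± 0.147 at 48 h, against 0.716 ± 0.0400 in controls, and that of Vegfa to Vegfb was 0.906 ± 0.0585 at 12 h and 0.670 ± 0.0616 at 48 h, against 0.422 ± 0.0714 in controls (SD, n = 3 each). For each of these 6 differences from control the 2-sided exact permutation p was 0.1, the smallest that 3 libraries against 3 allow, and 0.188 after adjustment over 60 ratio tests.

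**Figure D3:**
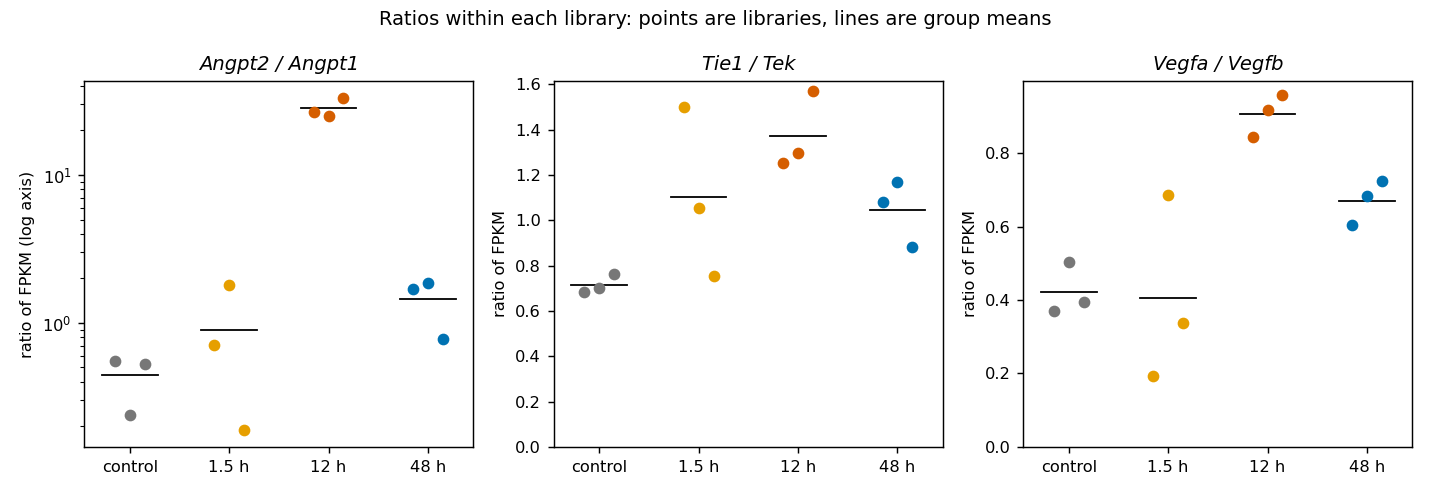
Ratio of FPKM within each library for Angpt2 over Angpt1 (log axis), Tie1 over Tek and Vegfa over Vegfb (linear axes from 0), by group; points are libraries and lines are group means. The Angpt2 to Angpt1 ratio is 24.9 to 33.3 in the 12 h libraries and 0.239 to 0.557 in controls.

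The levels of the receptors and of Angpt2, Apln and Esm1 can be set beside those of vessel markers. The summed FPKM of 16 endothelial markers ran from 87.6 to 102 at 1.5 h and from 127 to 141 at 12 h, against 96.8 to 113 in controls. The sum of 11 pericyte and smooth muscle markers, cells that wrap the endothelium, was 33.7 to 34.5 FPKM at 12 h, against 43.1 to 46.4 FPKM in controls. Per 100 FPKM of the endothelial sum, Angpt2 stood at 6.78 ± 0.324 FPKM at 12 h and 0.278 ± 0.145 FPKM in controls, and Kdr at 1.73 ± 0.317 FPKM at 12 h and 0.987 ± 0.0657 FPKM in controls. Tek stood at 0.572 ± 0.0881 FPKM per 100 at 12 h and 1.74 ± 0.269 FPKM in controls, and Tie1 at 0.775 ± 0.0347 FPKM per 100 at 12 h and 1.24 ± 0.133 FPKM in controls (SD, n = 3 each). All 4 pairs of groups were fully apart, at the smallest exact permutation p of 0.1, and 0.188 after adjustment over 60 ratio tests. Relative to that sum, Angpt2 and Kdr thus stood above and Tek and Tie1 below their control values in every 12 h library. Flt1 overlapped, at 3.49 ± 0.606 FPKM per 100 at 12 h and 2.92 ± 0.399 FPKM in controls (SD, n = 3 each, exact permutation p = 0.2). Apln stood above its control values in every 12 h library as well, and which cells it came from was not tested. Esm1 did too, but on 4 to 10 recovered reads per 12 h library. Its lowest 12 h value was 0.0930 FPKM per 100, close to the highest control at 0.0854. For both genes the exact permutation p was 0.1, and 0.188 after adjustment. At 48 h replicate 1, which was highest of the 12 libraries in Kdr, Tek and Tie1, the endothelial sum was 1.89 times and the pericyte sum 1.84 times the control mean, and its Kdr, Tek and Tie1 were 3.49, 2.40 and 3.63 times theirs. The part of vessel content in these differences was not tested.

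**Figure D4:**
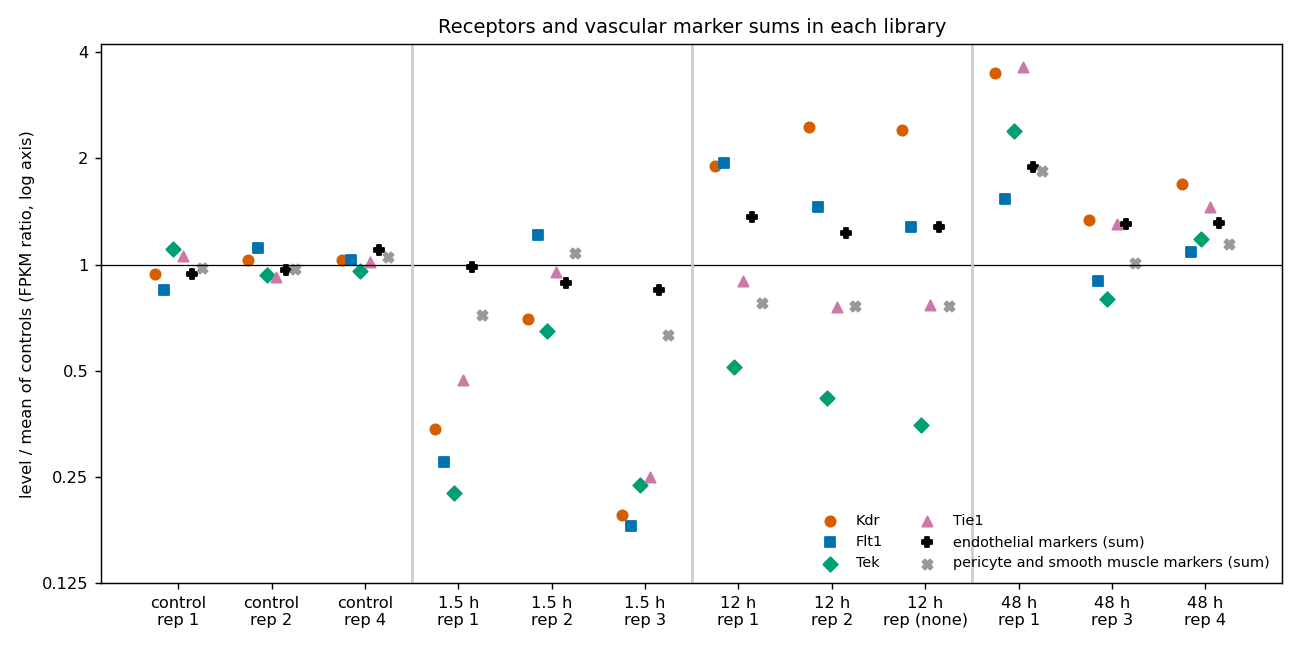
Level in each of the 12 libraries over the control mean (FPKM ratio, log axis) for Kdr, Flt1, Tek and Tie1 and for the summed endothelial and pericyte or smooth muscle markers. At 12 h Kdr lies above and Tek below the endothelial sum in all 3 libraries, and 48 h replicate 1 is above the control mean in all 6 items.

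The endothelial markers themselves did not move in 1 direction at 12 h, when 5 of 16 rose and 3 fell, at a median log2 difference of 0.39. Cldn5, the main tight junction claudin of the barrier, was at 27.6 ± 2.08 FPKM at 12 h and 14.3 ± 0.997 FPKM in controls, and Pecam1, an endothelial adhesion molecule, at 8.03 ± 0.467 FPKM at 12 h and 1.79 ± 0.310 FPKM in controls (SD, n = 3 each). Cdh5, Esam and Mfsd2a were the others that rose. Itm2a and the organic anion transporter Slco1a4 fell by 1.98 and by 1.57 on the log2 scale (limma adjusted p = 9.9e-05 and 0.00219), and Abcb1a fell as well. At 48 h 3 of 16 rose, Cldn5, Sox18 and Ly6c1, and at 1.5 h only Sox18, a transcription factor of endothelial cells, was called, with a log2 difference of -1.01 ± 0.17 (limma adjusted p = 0.0302). At an unadjusted limma p under 0.05, 5 of the 16 were lower and 2 higher at 1.5 h, beside 12.7% and 18.9% of all tested genes. Of 8 tested pericyte and smooth muscle markers, 3 rose at 12 h, Kcnj8 (1.39 ± 0.15), Acta2 (0.98 ± 0.22) and Abcc9, and 2 fell, Vtn (-1.09 ± 0.20) and Rgs5 (-1.01 ± 0.31). At 48 h Kcnj8 and Acta2 were called higher and none of the 8 lower. These endothelial and pericyte counts stand beside 13.3% higher and 7.9% lower of all tested genes at 12 h, and 7.5% and 5.01% at 48 h.

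Of 21 other genes of the VEGF, angiopoietin, TIE and apelin pathways, 17 were tested. All gene lists were written with earlier results of these data known. At 12 h, 9 rose and 1 fell, beside 13.3% and 7.9% of all tested genes, at a median log2 difference of 0.60. Thbs1 (thrombospondin-1), an inhibitor of angiogenesis, averaged 15.7 ± 3.27 FPKM at 12 h and 0.179 ± 0.0562 FPKM in controls, and Angptl4, an angiopoietin-like protein that inhibits lipoprotein lipase, averaged 5.56 ± 0.580 FPKM at 12 h and 0.505 ± 0.398 FPKM in controls (SD, n = 3 each). Nrp1, a VEGF-A and semaphorin co-receptor, rose by a log2 difference of 1.03 ± 0.16 (limma adjusted p = 0.00113), and Nos3, endothelial nitric oxide synthase, by 0.90 ± 0.18 (limma adjusted p = 0.00454). Flt4, Nrp2, Sema3e, Pgf and Shb were the other genes that rose. Plxnd1, the receptor of semaphorin 3E, fell by 1.07 (limma adjusted p = 0.0127) while its ligand Sema3e was among the genes that rose. Angpt4, Aplnr, Apela and Svep1 were not tested.

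At 48 h, 5 of the 17 rose and 2 fell, beside 7.5% and 5.01% of all tested genes, at a median log2 difference of 0.43. Angptl2, which had not passed at 12 h, stood at 2.02 ± 0.657 FPKM at 48 h and 0.397 ± 0.105 FPKM in controls (SD, n = 3 each). Nos3, Sema3e, Thbs1 and Nrp1 were the others that rose, with Thbs1 at a log2 difference of 1.50 ± 0.37, and Plxnd1 and Sema3a, a repulsive guidance cue that binds Nrp1, fell. At 1.5 h none of the 17 was called by limma, 1 was lower at an unadjusted p under 0.05, where 12.7% of all tested genes were, and the median log2 difference was -0.17.

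Of 13 genes that mark sprouting endothelium, 7 rose at 12 h and 0 fell, beside 13.3% and 7.9% of all tested genes, at a median log2 difference of 0.83. The genes that rose were Plaur (the urokinase receptor, 2.98 ± 0.21), Adm (adrenomedullin, 2.51 ± 0.22), Pdgfb (1.08 ± 0.18), Igfbp3 (1.05 ± 0.22), Lama4, Mcam and Dll4. Plaur, Adm, Pdgfb and Igfbp3 are also made by cells other than endothelium. At 48 h 5 rose, led by Igfbp3 at 20.6 ± 5.56 FPKM, against 3.01 ± 0.205 FPKM in controls (SD, n = 3 each), with Plaur, Adm, Cxcr4 and Pdgfb, and Cd34 fell by 0.66 on the log2 scale. Of all tested genes, 7.5% rose and 5.01% fell at 48 h. At 1.5 h none of the 13 was called by limma, 3 were higher at an unadjusted p under 0.05, where 18.9% of all tested genes were, and their median log2 difference was 0.14.

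Vegfa, Adm and Angptl4 are known targets of hypoxia-inducible factors. Of 14 tested hypoxia targets outside the 10 genes, 6 rose at 12 h, namely Adm, Pfkfb3 (1.51 ± 0.18), P4ha1 (1.11 ± 0.17), Hk2 (0.74 ± 0.13), Slc2a1 and Egln3, and Pdk1 fell by 0.57 (limma adjusted p = 0.0278), at a median of 0.47. Of all tested genes, 13.3% rose and 7.9% fell at 12 h. At 48 h, Adm and Hk2 were called higher and none lower, beside 7.5% and 5.01% of all tested genes, at a median of 0.16. At 1.5 h none was called by limma, at a median of 0.17. In that comparison 3 were higher and 1 lower at an unadjusted p under 0.05, beside 18.9% and 12.7% of all tested genes. Adm stands in both this list and the sprouting list.

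**Figure D5:**
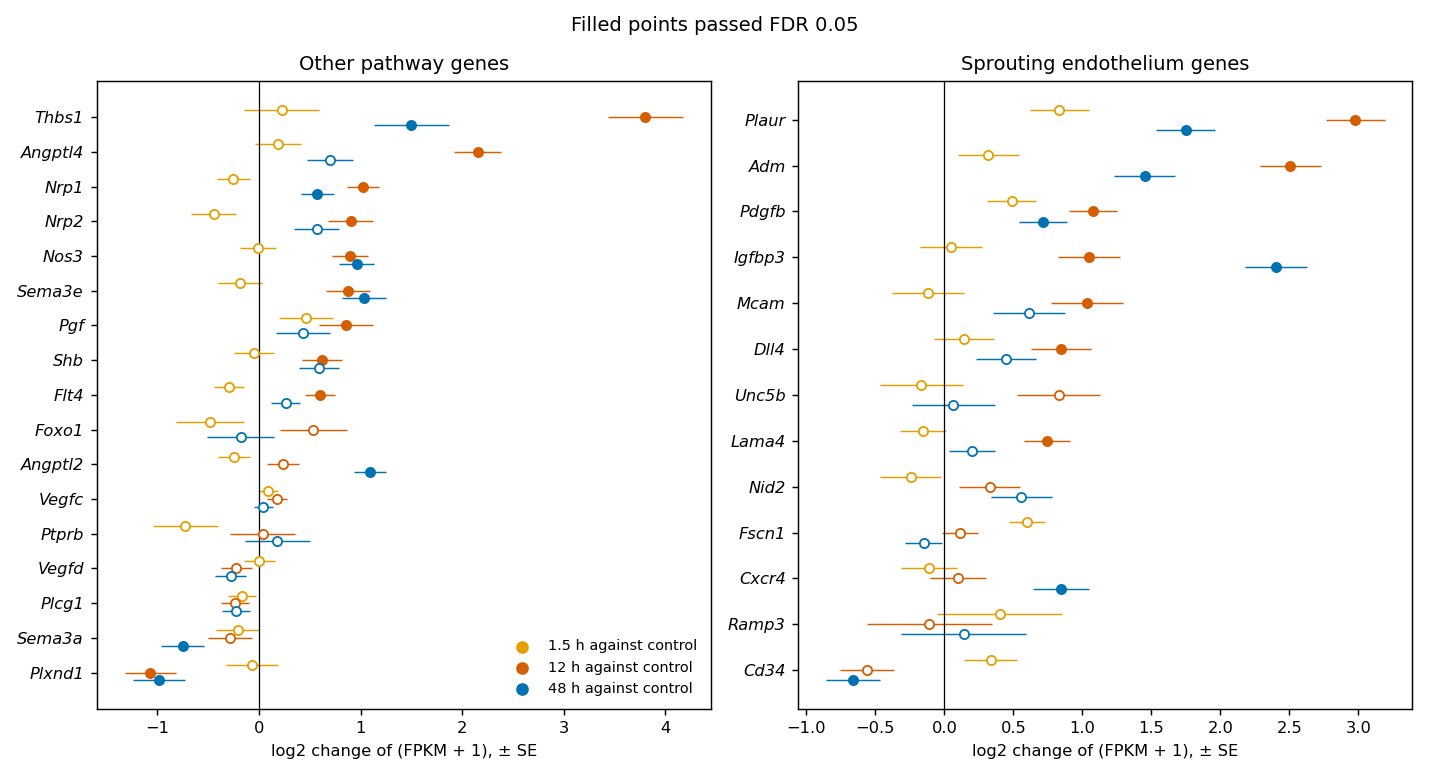
Log2 difference of (FPKM + 1) from control, with SE, at 1.5 h, 12 h and 48 h for the 17 tested other pathway genes and the 13 sprouting genes; filled points have an adjusted p below 0.05. Thbs1, Plaur, Adm and Angptl4 lie farthest to the right at 12 h, and Plxnd1 lies to the left at 12 h and 48 h.

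Markers of other brain cell types moved too, and their part in the levels of the 10 genes was not tested. Of all tested genes, 13.3% rose and 7.9% fell at 12 h, and 7.5% rose and 5.01% fell at 48 h. At 12 h, 4 of 8 microglial markers fell, P2ry12 (-3.00 ± 0.22), Tmem119 (-2.02 ± 0.24), Csf1r and Cx3cr1, and 2 of 9 astrocyte markers rose, Gfap (2.99 ± 0.40) and Aldh1l1 (0.60 ± 0.10). In the same comparison 2 of 7 oligodendrocyte markers rose, Olig2 and Mobp, as did 1 of 9 neuron markers, Nefl. At 48 h, 6 of 8 microglial markers rose, among them C1qa (2.55 ± 0.33), Itgam, Cx3cr1, Csf1r and Aif1. Also at 48 h, the astrocyte markers Gfap (4.69 ± 0.40), Aldh1l1 (0.86 ± 0.10) and Aqp4 rose and Aldoc (-0.74 ± 0.18) fell, Olig2 rose, and none of 9 neuron markers was called by limma, with 2 lower at an unadjusted p under 0.05. At 1.5 h none of the microglial, astrocyte, oligodendrocyte, neuron, pericyte or smooth muscle markers was called by limma. At an unadjusted p under 0.05, 2 of 8 microglial markers were then higher and 1 lower, and 2 of 9 astrocyte markers were higher and 3 lower. Of 9 neuron markers 1 was higher and 2 were lower. Of 7 oligodendrocyte markers 1 was higher, and of 8 pericyte or smooth muscle markers 2 were lower. Beside these, 18.9% of all tested genes were higher and 12.7% lower. None of 7 choroid plexus markers and none of 4 tested blood markers was called by limma at any time against control, and at an unadjusted p under 0.05 there were 2, both choroid plexus markers lower at 1.5 h. The summed blood marker level was 0.886 to 30.2 FPKM in controls, 11.9 to 365 FPKM at 1.5 h, 9.42 to 56.7 FPKM at 12 h and 2.35 to 10.5 FPKM at 48 h. The 365 FPKM were in 1.5 h replicate 1, and the other 1.5 h libraries had 11.9 and 14.5 FPKM.

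For Vegfa, Kdr, Apln, Tek and Angpt2, which passed the F test, the genes most like each were found as those whose log2(FPKM + 1) deviations from their own control mean differed least over the 12 libraries, among 13714 genes of at least 1 FPKM. The root mean square difference was 0.114 for Kdr and Ets1, which averaged 2.42 FPKM at 12 h and 0.949 FPKM in controls, and Tmem123 and Ednrb came next for Kdr. It was 0.128 for Vegfa and Sde2, with Map7d1 and Etv3 next, and 0.181 for Apln and Usp28, with Fat4 and Btaf1 next. For Tek it was 0.215 with Sall1, and then Smc2 and Apcdd1. For Angpt2 it was 0.323 with Serpinb2, and then Tiparp and Acan. This measure is not scaled to the size of a gene's change, which was largest for Angpt2. Its values therefore do not rank these 5 genes by how close their neighbours are. Serpinb2, which encodes an inhibitor of plasminogen activators, averaged 5.42 FPKM at 12 h and was listed at 0 in controls, and Tiparp averaged 34.6 FPKM at 12 h and 3.92 FPKM in controls.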

How the data were processed

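Mouse brain RNA was measured in 4 groups of 3 libraries. The deposited table gives FPKM per gene, made by the authors, and gene lengths and coordinates, per the file headers. The submitters' processing notes name Bowtie 0.12.2 and mm8, but 98.33% of 54409 identifiers shared with GENCODE M21 have its start and end, so positions are GRCm38. The counting tool and strandedness are not given in the sources used here. FPKM times length fell on whole multiples of a fixed step per library for 100% of values (within 0.05 of a step), which gave the recovered reads, used only as depth. The deposited FPKM already held a scaling between libraries, equal to median-of-ratios factors from 18170 genes, and none was added.

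Genes above 0.5 FPKM in at least 3 libraries (17664) were tested on log2(FPKM + 1) by limma 3.58.1 (R 4.3.3) with a trended prior variance and every library in 1 model. P-values were adjusted by Benjamini-Hochberg over all tested genes, with calls at 0.05. This scale understates fold changes of low genes. The labels do not say that libraries came from separate animals, so p-values measure the spread between libraries. Ratios were compared by exact permutation tests (scipy 1.17.1). The code was tested on simulated data.

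All 10 genes are reported. For 11 gene lists, the counts called against control are given. Up to 4 genes in each direction with the smallest p, or 2 for cell markers, were to be named. Most other called genes are given by name. The genes and lists were chosen with earlier results of these data known. The 21 alternatives covered the pseudocount, filter, trend, library weights, scaling, length correction, groups fitted, libraries left out and the replicate number as a block. The genes most like Tie1, and 1 called marker, are not reported here.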

Additional observations from a re-analysis of the deposited data

Results flagged for a closer look

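Differences from control were compared between times in the limma fit. The control cancels, so these are the direct comparisons of times given above. Between 12 h and 1.5 h, 5 of the 9 tested genes were called, beside 33.2% of all tested genes. Between 48 h and 12 h, 5 of the 9 were called, beside 15.6%. From 1.5 h to 12 h the difference from control was larger at 12 h by 0.87 on the log2(FPKM + 1) scale for Vegfa, 1.23 for Kdr, 1.25 for Flt1, 2.91 for Angpt2 and 1.15 for Apln. For Kdr every 12 h library lay above and every 1.5 h library below all controls. With replicate 2 as the only 1.5 h library, taken to vary like the other groups, the Flt1 value was 0.28 (limma adjusted p = 0.496). The Kdr value was then 0.94 (limma adjusted p = 0.0704), and leaving out 1 library at a time it was 1.11 to 1.37.

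From 12 h to 48 h the difference from control changed by -0.70 for Vegfa, -2.17 for Angpt2 and -1.35 for Apln, and by 0.54 for Angpt1 and 0.96 for Tek. For Apln every 12 h library was above the mean of the controls and every 48 h library below it. For Tie1 every 48 h library lay above and every 12 h library below all controls, and the change of 0.79 did not pass (limma adjusted p = 0.0655). Without 48 h replicate 1, the library high in vessel markers, the change was 0.64 for Tek (limma adjusted p = 0.0547) and 0.44 for Tie1 (limma adjusted p = 0.144).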

How the results depend on the processing

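Angpt2, Vegfa and Apln were called higher at 12 h than in controls in all 21 alternatives, at log2 differences of 2.88 to 4.62, 0.98 to 1.11 and 0.95 to 1.14, and Angpt2 at 48 h in 20 of 21. The counts of genes called moved more, and the cause was not tested. With array weights they were 7 of 9 at 1.5 h, 7 at 48 h and 8 for 12 h against 1.5 h, where 64.8%, 39.2% and 71.9% of all tested genes were called. Those weights were 8.02 for 1.5 h replicate 3, and 0.0963 and 0.25 for 1.5 h replicates 2 and 1, so the 1.5 h group then rested mostly on 1 library. The 12 h count was 6 with array weights and with only 2 groups fitted, beside 51.3% and 41.2% of all tested genes. With quantile normalization it was 5, beside 26.1%. The 48 h count was 2 with the length correction and with only 2 groups fitted, beside 15% and 21.5% of all tested genes. Without 1.5 h replicates 1 and 3 it was 3, as was that for 12 h against 1.5 h, beside 26.5% and 13.6%, and without the filter 48 h against 12 h gave 3, beside 9.52%. Leaving out 1 library at a time gave 0 to 4 at 1.5 h, 3 to 5 at 12 h, 1 to 2 at 48 h and 3 to 6 for 48 h against 12 h. In those fits 0.0623% to 45.7%, 13% to 32.5%, 6.83% to 23.6% and 9.14% to 28% of all tested genes were called.

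With the replicate block (replicate number as a term, unnumbered 12 h library left out) the counts were 3 at 12 h, 0 at 48 h (Angpt2 at 0.87, limma adjusted p = 0.0704), 3 between 12 h and 1.5 h, and 2 between 48 h and 12 h, where 7.48%, 4.1%, 6.42% and 2.66% of all tested genes were called. Across genes, libraries with the same number did not deviate together (median r -0.0035 over 11 pairs, range -0.26 to 0.16), so the numbers were not taken as pairs.

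Signs turned only where a difference was not called. At 1.5 h these were Angpt1 (0.024) and Angpt2 (-0.16) with array weights, Vegfb (-0.0064) with quantile normalization, Angpt2 (-0.035) with the length correction, and Vegfb (-0.21), Flt1 (0.22) and Apln (0.16) without replicates 1 and 3. At 12 h Vegfb was 0.018 under the block. For 12 h against 1.5 h, Tek was -0.063 with quantile normalization and -0.024 under the block, and Vegfb, Tek and Tie1 were 0.19, -0.29 and -0.13 without 1.5 h replicates 1 and 3. For 48 h against 12 h, Kdr was 0.014 with the length correction and 0.23 under the block. Leaving out 1 library gave ranges across 0 for Angpt2 (-0.13 to 0.18) and Apln (-0.22 to 0.043) at 1.5 h, Vegfb at 12 h (-0.082 to 0.020), Flt1 (-0.0052 to 0.29) and Tek (-0.018 to 0.54) at 48 h, and Kdr for 48 h against 12 h (-0.38 to 0.099). Low recovered reads limit Esm1, and 3 libraries a group limit all tests.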
